A study of Mus musculus with 6 samples.

Results

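Foxf1, Foxf2, Foxl1, Nkx2-3, Nkx3-2, Barx1, Pitx1 and Isl1 are 8 forkhead and homeobox transcription factor genes known from the mesenchyme of the digestive tract. They were taken by name from the 23329 genes of the count tables, where 7 of the 8 carry these symbols and Foxf1 stands under its older symbol Foxf1a. The libraries come from primary cultures of mesenchymal cells of the small intestine of C57 mice, with 3 libraries of embryonic day 14.5 (E14.5) origin and 3 of adult origin. All 6 cultures were grown in serum with the kinase inhibitor Y27632 and harvested at passage 2 to 3, so they are cultured cells and not tissue. Adult villi were scraped off before digestion while embryonic gut was cut into pieces, so tissue handling differed between the groups. No transgene or mutant allele is named for either group, and no age is known here for the adults. Whether the 3 cultures of a stage derive from different animals is not stated in the labels, so p-values measure only the spread between these cultures, which may be technical.

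The forkhead proteins FOXF1, FOXF2 and FOXL1 are made in gut mesenchyme in response to Hedgehog ligands from the epithelium, and they in turn set the supply of BMP and Wnt signals to that epithelium. NKX2-3 is a homeodomain protein of intestinal mesenchyme and of spleen and gut vessels. NKX3-2, BARX1 and ISL1 belong to the more anterior gut, where they pattern stomach and pylorus, and PITX1 is best known from the hindlimb. In bulk RNA, fewer cells of a type and less RNA per cell cannot be told apart.

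Of the 8 genes, 5 have an entry in the RefSeq promoter table for GRCm38.p6, the build that mm10 names: Foxf2, Nkx2-3, Nkx3-2, Barx1 and Isl1. The 250 bases before the transcript start are shown for Foxf2 and Nkx2-3, which were well expressed, and for Barx1, which was nearly silent. They lie at chr13:31625566-31625815 (plus strand), chr19:43612075-43612324 (plus strand) and chr13:48662786-48663035 (plus strand). Capitals mark matches, on either strand, to the CCAAT box or to the GC box (letters GGGCGG), and GC box matches may overlap each other.
Foxf2: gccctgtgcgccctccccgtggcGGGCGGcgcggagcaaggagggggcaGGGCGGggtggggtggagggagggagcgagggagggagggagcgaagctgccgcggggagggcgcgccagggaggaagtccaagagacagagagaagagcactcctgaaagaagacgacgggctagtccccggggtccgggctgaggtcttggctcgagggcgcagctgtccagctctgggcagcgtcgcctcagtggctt
Nkx2-3: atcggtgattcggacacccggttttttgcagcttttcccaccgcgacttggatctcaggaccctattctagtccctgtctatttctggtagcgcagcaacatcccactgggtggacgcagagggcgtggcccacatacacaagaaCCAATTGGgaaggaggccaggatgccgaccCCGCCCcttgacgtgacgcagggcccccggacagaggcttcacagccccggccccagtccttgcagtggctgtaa
Barx1: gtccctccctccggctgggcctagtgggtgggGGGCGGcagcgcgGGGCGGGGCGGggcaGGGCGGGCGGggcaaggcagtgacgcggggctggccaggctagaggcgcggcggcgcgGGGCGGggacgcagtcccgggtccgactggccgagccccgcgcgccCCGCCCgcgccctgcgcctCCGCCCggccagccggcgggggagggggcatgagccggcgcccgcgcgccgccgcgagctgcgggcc

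All 3 stretches are rich in G and C, at 71.6% for Foxf2, 60% for Nkx2-3 and 85.6% for Barx1, against a median of 52.4% over 32851 promoters of the same length. Their ratio of observed to expected CpG was 0.724, 0.626 and 0.891, against a median of 0.374. The weakly expressed Nkx3-2 and Isl1 had 68.8% and 71.2% G and C and CpG ratios of 0.715 and 1.055. Foxf2 held 2 GC box matches, Nkx2-3 held 1 and Barx1 held 8, while 32.7% of all promoters held at least 1. The pair of CCAAT matches of Nkx2-3 overlap each other, Foxf2 and Barx1 held none, and 33.9% of all promoters held at least 1. None of the 5 stretches matched the forkhead core (letters TGTTTAC, in 3.17% of all promoters), the GLI core (letters GACCACCCA, in 0.225%) or the TATA box (letters TATAAA, in 12.4%).

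Gene counts per library came to 18850224 at the lowest (adult replicate 2) and 32672370 at the highest (E14.5 replicate 1). Levels are counts per 1000000 reads (CPM) on scaled library sizes, and 3 counts, the limit that a count of 0 allows, correspond to 0.0927 to 0.149 CPM depending on the library. Xist measured 199.5, 33.3 and 141 CPM in E14.5 replicates 1 to 3 in order, and 0 in every adult library. The Y-linked gene Ddx3y measured 14.1, 124 and 78.3 CPM in the same E14.5 libraries, against 147 to 173 CPM in adult ones. The sex of the cells thus differed with stage and also varied among E14.5 libraries. Its part in a stage difference cannot be told apart from that of stage. All 10 mesenchyme markers were detected in every library, most of them abundant, with a summed level of 26838 to 39238 CPM in embryonic cultures and 23604 to 35695 CPM in adult ones. Fn1 and Col1a1 made up most of the E14.5 sum, and Pdgfra was low in E14.5, at 3.59 ± 1.01 CPM against 47.4 ± 29.1 CPM in adults (SD, n = 3 each). Of 9 epithelial markers in the tables, Cdx2 and Fabp1 had 0 counts in every library, Epcam had 2 to 4 and Cdh1 had 2 to 26. Krt20 was the exception, at 44.3 ± 18.6 CPM in embryonic and 12.1 ± 2.61 CPM in adult libraries (SD, n = 3 each), without overlap (edgeR adjusted p = 0.083).

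Measured per kilobase of exon, the 8 genes fell into an expressed and a nearly silent set. In every library Nkx2-3 was the highest, then Foxf1, then Foxf2. Nkx2-3 reached 25.4 ± 6.40 CPM per kilobase in E14.5 and 36.1 ± 0.843 in adult cultures (SD, n = 3 each). Foxf1 reached 9.21 ± 4.09 and 7.57 ± 0.216 CPM per kilobase, and Foxf2 reached 6.19 ± 2.84 and 3.22 ± 0.413, so in E14.5 the values of the forkhead paralogues overlapped between libraries. The other 5 genes stayed at or below 0.778 CPM per kilobase in every library, and their order among themselves was not resolved because their values overlapped. Nkx2-3 held 52.5% to 67.4% of the summed counts of the 8 genes in E14.5 and 72.5% to 73.9% in adult libraries. The sum itself was 108, 57.6 and 111 CPM for E14.5 replicates 1 to 3 in order, against 101 to 106 CPM in adult cultures, so only E14.5 replicate 2 stood apart.

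**Figure D1:**
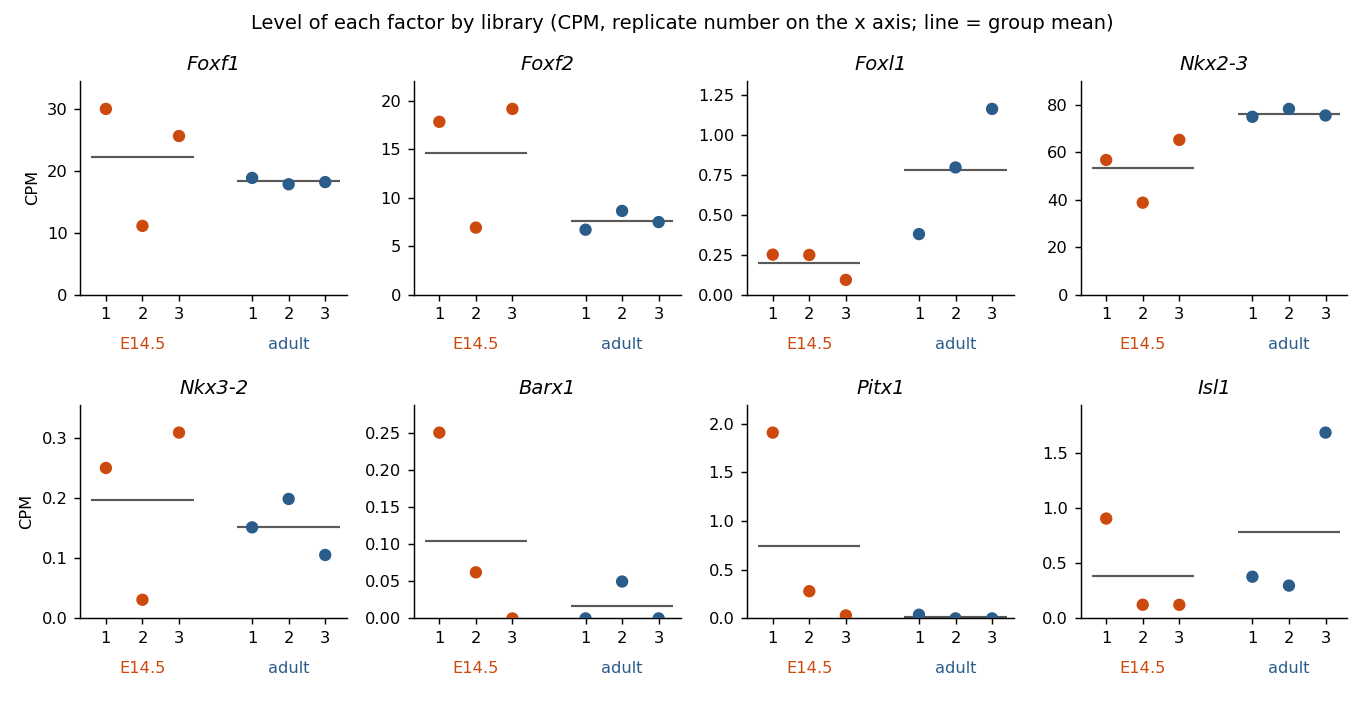
Level of each of the 8 factors in CPM (y axis, its own scale in each panel) in the 3 E14.5 and 3 adult libraries (x axis, replicate number); points are libraries and lines are group means. Adult values of Nkx2-3 sit between 75.0 and 78.3 CPM, and E14.5 replicate 2 is the lowest of the 6 libraries for Nkx2-3 and Foxf1.

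None of the 8 genes passed the test between stages (edgeR's quasi-likelihood test, adjusted p under 0.05). Of them 5 had enough counts to be tested, 0 were called by edgeR, DESeq2 or limma-voom, and 2 had an unadjusted p under 0.05, Foxl1 and Nkx2-3. Over all 13478 genes tested, edgeR called 1.08%, 17.9% had an unadjusted p under 0.05, and DESeq2 called 10.6% of those it adjusted. Groups did not overlap for 2 of the 5 tested genes, Foxl1 and Nkx2-3, against 24.1% of all genes tested.

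Nkx2-3, the homeobox factor of intestinal mesenchyme, is a plus-strand gene of chromosome 19 (mm10, 43612325 to 43615892). It measured 56.8, 38.8 and 65.3 CPM for E14.5 replicates 1 to 3 in order, against 75.0, 78.3 and 75.6 CPM in adult replicates 1, 2 and 3. Every E14.5 library lay below every adult library, and the adult values were nearly equal. The log2 fold change of E14.5 over adult was -0.51 (SE 0.20, edgeR adjusted p = 0.248), so adult cultures had 1.42-fold more. Between libraries whose titles share a prefix, the meaning of which the labels do not give, the log2 difference was -0.40, -1.01 and -0.21. Among the alternatives run, the difference was smallest without E14.5 replicate 2, at -0.32 (adjusted p = 0.162, edgeR).

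Foxf1, the forkhead gene that gut mesenchyme needs to form, is a plus-strand gene of chromosome 8 (121084386 to 121088154). Its level was 30.0, 11.1 and 25.6 CPM in embryonic cultures and 18.9, 17.8 and 18.2 CPM in adult ones. The embryonic values lay on both sides of the adult ones. E14.5 over adult gave a log2 fold change of 0.28 (SE 0.35, edgeR adjusted p = 0.762), and it was -0.0075 without E14.5 replicate 1. Foxf2, its paralogue on the plus strand of chromosome 13 (31625816 to 31631406), measured 17.8, 6.92 and 19.2 CPM in embryonic cultures and 6.70, 8.64 and 7.49 CPM in adult ones. Embryonic replicates 1 and 3 had more Foxf2 than any adult library, and replicate 2 lay among the adults. Its log2 fold change was 0.94 (SE 0.40, edgeR adjusted p = 0.286), or 1.92-fold.

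The Foxf2 result turned on E14.5 replicate 2. Without that library Foxf2 was 1.28 higher in E14.5 on the log2 scale (SE 0.18, edgeR adjusted p = 0.033) and passed the test, as 3.42% of 13788 genes did in that fit. Foxf1 was then 0.60 higher (edgeR adjusted p = 0.070). In the remaining alternatives with a test, Foxf2 did not pass, with adjusted p from 0.161 to 0.922. Mesothelial markers summed to 879 CPM in E14.5 replicate 2, against 191 and 171 CPM in replicates 1 and 3 and 691 to 1627 CPM in adult cultures, and all 9 of these genes that the tables hold were detected in every library. Macrophage and leukocyte markers summed to 362 CPM in that library, against 179 and 2107 CPM in replicates 1 and 3 and 160, 22.1 and 45.2 CPM in adult replicates 1, 2 and 3. All 11 listed genes were detected in every library and all 11 had a positive log2 fold change (median 4.30). Of them 0 passed edgeR and 9 passed DESeq2, against 1.08% and 10.6% of all genes. Among E14.5 libraries, replicate 2 also had the least Xist and the most Ddx3y, at 33.3 and 124 CPM. The part of mesothelial cells, leukocytes or sex in the low forkhead levels of replicate 2 was not tested.

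**Figure D2:**
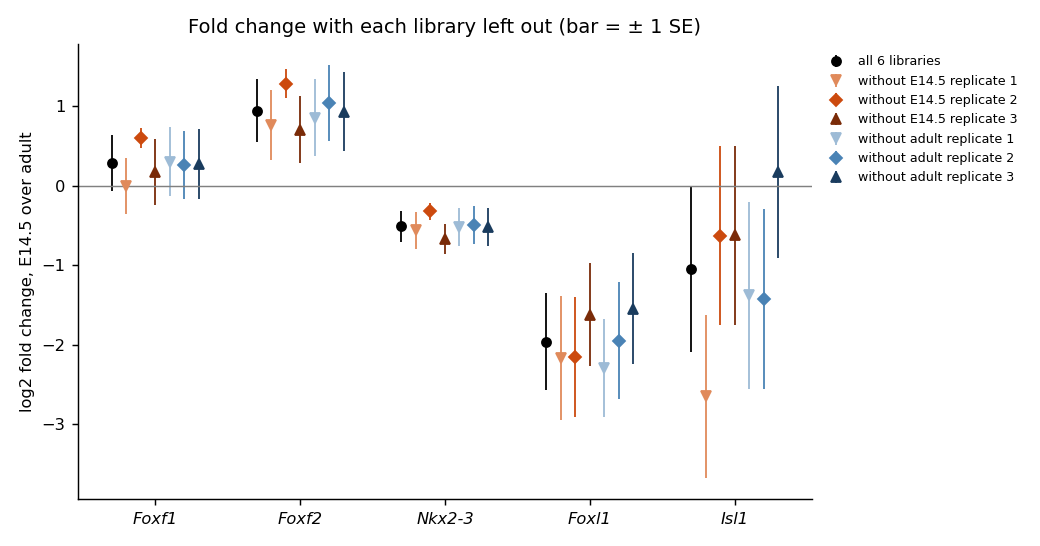
The log2 fold change of E14.5 over adult (y axis, bars ± 1 SE from edgeR) for the 5 tested factors (x axis), with all 6 libraries and with each library left out. Foxf2 goes from 0.94 to 1.28 without E14.5 replicate 2, Foxf1 drops to -0.0075 without E14.5 replicate 1, and Isl1 crosses 0 without adult replicate 3.

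The ratio between the forkhead paralogues did not overlap between stages, although neither gene passed the test on its own. For single genes, groups did not overlap for 24.1% of all genes tested, and the share among ratios of other gene pairs was not computed. The ratio of Foxf1 to Foxf2 counts, which needs no scaling between libraries, was 1.68, 1.61 and 1.34 in the E14.5 libraries and 2.81, 2.06 and 2.43 in the adult libraries. Every embryonic ratio was below every adult ratio, replicate 2 included. The mean log2 ratio was 0.65 lower in E14.5 (log2 difference -0.65, SE 0.16), so the adult ratio was 1.57-fold higher. A two-sided exact permutation test over the 6 libraries gave p = 0.1, the smallest p that 3 against 3 allows, so the threshold of 0.05 could not be reached. Of the 3 ratios among the expressed factors, only this one was tested. Foxf2 to Nkx2-3 was 0.314, 0.178 and 0.294 in E14.5 and 0.0893, 0.110 and 0.0991 in adults. Foxf1 to Nkx2-3 was 0.528, 0.286 and 0.393 in E14.5 and 0.251, 0.228 and 0.241 in adults. The ratios to Nkx2-3 were higher in every embryonic than in every adult library. The 3 ratios share their counts, so they do not count as separate results.

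**Figure D3:**
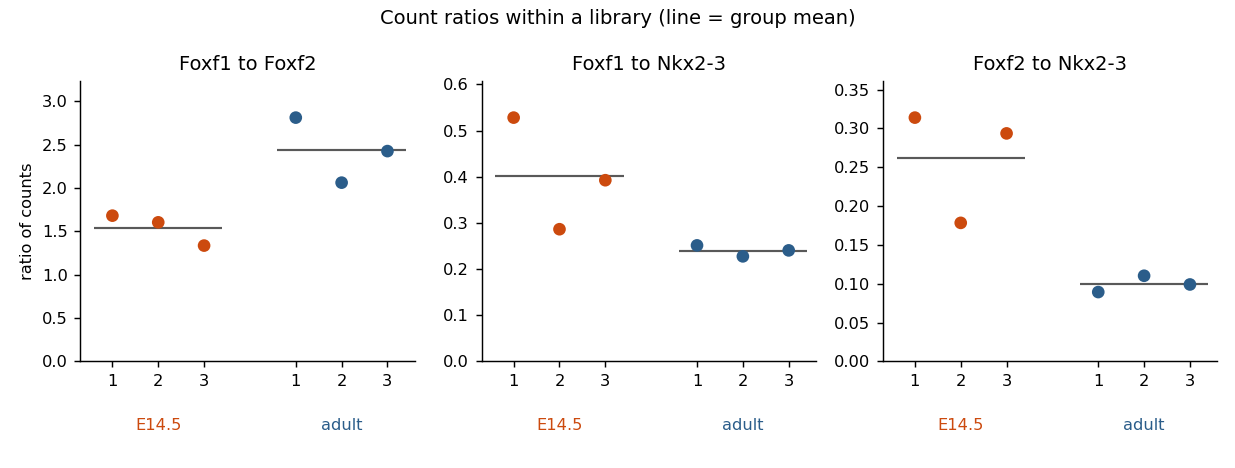
Ratios of counts between pairs of factors (y axis) in each library (x axis, replicate number), with lines at the group means. The Foxf1 to Foxf2 ratio is 1.34 to 1.68 in E14.5 and 2.06 to 2.81 in adult libraries.

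Foxl1, which marks the subepithelial telocytes that signal to crypts, is a plus-strand gene of chromosome 8 (121127685 to 121130644) and was scarce at both stages. It had 8, 8 and 3 counts in E14.5 and 10, 16 and 33 in adult libraries, or 0.250, 0.248 and 0.0927 CPM against 0.379, 0.795 and 1.16 CPM. The adult values were all higher, but the exact Poisson 95% interval of adult replicate 1, 0.182 to 0.696 CPM, overlapped that of E14.5 replicate 1, 0.108 to 0.493 CPM. Such intervals cover counting error only. Its log2 fold change was -1.96 (SE 0.61, edgeR adjusted p = 0.171), and it lay between -2.29 and -0.93 in all alternatives that tested it. Foxl1 entered the test through its adult counts, so its selection favoured a difference. Reads on the opposite strand made up 9.30% of its stranded counts (8 of 86), against 1.25% to 1.41% for Foxf1, Foxf2 and Nkx2-3. Telocyte markers did not move one way: of those tested, 4 had a negative and 1 a positive log2 fold change (median -0.67). Of 10 listed 5 were tested, and 1 passed edgeR: Pdgfra fell in E14.5, with a log2 fold change of -3.72 (edgeR adjusted p = 0.036). That call was lost without E14.5 replicate 1 or 3 or adult replicate 1 or 3, at edgeR adjusted p of 0.126, 0.075, 0.068 and 0.141. It was also lost with limma-voom (adjusted p = 0.081) and with the title prefix as a block (edgeR adjusted p = 0.094). Without both E14.5 replicate 3 and adult replicate 2 it was lost at an edgeR adjusted p of 0.055. Against that direction, Wnt5a (227 CPM in embryonic and 91.1 CPM in adult cultures), Npy (0.445 and 0.0926 CPM) and Bmp7 (7, 2 and 4 counts in E14.5, 0 in every adult library) were higher in all E14.5 libraries than in any adult one. Npy and Bmp7 had too few counts to be tested. Fgf9 was lower in all E14.5 libraries than in any adult one (log2 fold change -0.75, edgeR adjusted p = 0.346). Groups did not overlap for 24.1% of all genes tested. The part of these markers in the Foxl1 level was not tested.

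Isl1, a LIM homeobox gene of pyloric mesenchyme and of neurons, is a minus-strand gene of chromosome 13 (116298270 to 116309688). It had 29, 4 and 4 counts in E14.5 and 10, 6 and 48 in adult libraries. One library in each group, E14.5 replicate 1 at 0.907 CPM and adult replicate 3 at 1.69 CPM, lay above the rest, which were at 0.124 to 0.379 CPM. The log2 fold change of -1.04 (SE 1.05, edgeR adjusted p = 0.691) became 0.17 without adult replicate 3, and -2.65 when E14.5 replicate 1 was left out. Among enteric neuron genes in these 2 libraries, in that order, Elavl4 had 36 and 3 counts, Ret had 31 and 30, Tubb3 had 1437 and 2542, and Uchl1 had 5021 and 6258. The list of 10 neuron genes, most of it Uchl1 and Tubb3, summed to 206, 297 and 250 CPM for embryonic replicates 1, 2 and 3. The adult sums were 235, 240 and 312 CPM, in the same order. Of the 2 libraries with the most Isl1, adult replicate 3 thus had the largest neuron sum and E14.5 replicate 1 the smallest. E14.5 replicate 2, with 4 Isl1 counts, ranked just below the largest. Of the 10 neuron genes, 5 were at 0 in at least 1 library, and the part of neurons in the Isl1 level was not tested.

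Pitx1, Barx1 and Nkx3-2 had too few counts to be tested. Pitx1, on the minus strand of chromosome 13 (55825044 to 55836190), had 61, 9 and 1 counts in E14.5 and 1, 0 and 0 in adults. Most of its reads came from E14.5 replicate 1, at 1.91 CPM with an exact Poisson 95% interval of 1.46 to 2.45 CPM, and E14.5 replicate 3 could not be told from the adults. With no filter on low counts its edgeR adjusted p was 0.214 among 18126 genes. Barx1, the stomach mesenchyme factor on the plus strand of chromosome 13 (48663036 to 48666507), had 8, 2 and 0 counts in E14.5 and 0, 1 and 0 in adults. Only E14.5 replicate 1 was above 3 counts. Nkx3-2, on the minus strand of chromosome 5 (41761483 to 41764220), had 8, 1 and 10 counts in E14.5 and 4, 4 and 3 in adults. These values overlapped, and a difference in Nkx3-2 was not detectable at this depth.

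The genes beside the 8 factors that could be tested were Fendrr, Mthfsd, Foxc1, Foxc2, Foxq1, Rab28 and Bod1l. Of these 0 passed edgeR, and 1, Foxc2, had groups that did not overlap, against 24.1% of all genes tested. Fendrr, a long noncoding RNA gene 1275 bases from Foxf1, measured 3.19, 0.434 and 3.89 CPM in embryonic cultures and 1.70, 3.68 and 2.11 CPM in adult ones. Like Foxf1 it was lowest in E14.5 replicate 2, and its log2 fold change was 0.0096 (SE 0.77, edgeR adjusted p = 0.997). Mthfsd, on the other side of Foxf1 at 3473 bases, measured 23.2 CPM in embryonic cultures and 21.2 CPM in adult ones (log2 fold change 0.13). Foxc2, a forkhead gene of vessels and mesenchyme that lies 8789 bases from Foxl1 in the same cluster, measured 16.2, 11.8 and 2.84 CPM in embryonic cultures and 18.2, 41.4 and 37.7 CPM in adult ones. All its embryonic values were below the adult ones, as for Foxl1, without passing the test (log2 fold change -1.66, SE 0.64, edgeR adjusted p = 0.252). Beside Foxf2, Foxc1 had a log2 fold change of -0.63 (SE 0.56) and Foxq1 of 0.20 (SE 0.46), neither past the test, and 1700018A04Rik had 2 to 21 counts per library. Beside Nkx3-2, Rab28 and Bod1l had log2 fold changes of -0.37 and -0.24, neither past the test, and beside Pitx1, Catsper3 had 0 to 8 counts per library. The nearest genes of Nkx2-3, Barx1 and Isl1 in the RefSeq table were not matched in the count tables.

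Among other forkhead genes no difference passed edgeR. The count files name 41 of them, 19 were tested and 0 passed edgeR. An unadjusted p under 0.05 was found for 4, while 3 passed DESeq2 and 0 passed limma-voom. The shares over all genes were 1.08% by edgeR, 17.9% unadjusted and 10.6% by DESeq2. Their median log2 fold change was -0.21, against 0.013 over all genes tested, and 7 of 19 were positive. The genes past DESeq2, named after their values were seen, were Foxo1, Foxo6 and Foxs1, with Foxc2 the other one at an unadjusted p under 0.05. Foxo1, a target of insulin signalling, measured 25.8 ± 5.35 and 50.3 ± 8.31 CPM in embryonic and adult cultures (SD, n = 3 each; edgeR adjusted p = 0.097), without overlap. Foxk2 and Foxp1, the broadly expressed members with the highest mean CPM over all 6 libraries, measured 83.7 and 79.3 CPM and 63.0 and 76.8 CPM in embryonic cultures and adults.

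Among 39 tested homeobox genes outside the Hox clusters and apart from the 8 factors, 1 rose and 2 fell in E14.5 by edgeR. At an unadjusted p under 0.05 there were 13, 10 passed DESeq2 and 4 passed limma-voom, Prrx1 and Prrx2 among them. Of all genes, 1.08% passed edgeR, 17.9% had an unadjusted p under 0.05 and 10.6% passed DESeq2. The median log2 fold change was -0.022. Prrx1, a homeobox gene of limb and connective tissue mesenchyme, had 44, 10 and 17 counts in E14.5 and 1440, 596 and 1422 in adults, with no overlap. It fell by 5.92 on the log2 scale (SE 0.60, edgeR adjusted p = 0.022). Its call was lost without E14.5 replicate 1, adult replicate 1 or adult replicate 3, at edgeR adjusted p of 0.056, 0.065 and 0.137. The call was also lost with the title prefix as a block (edgeR adjusted p = 0.074). Without both E14.5 replicate 3 and adult replicate 2 it was lost at an edgeR adjusted p of 0.075. Zeb1, an abundant member not past the test, measured 96.3 CPM in embryonic cultures and 122 CPM in adult ones.

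**Figure D4:**
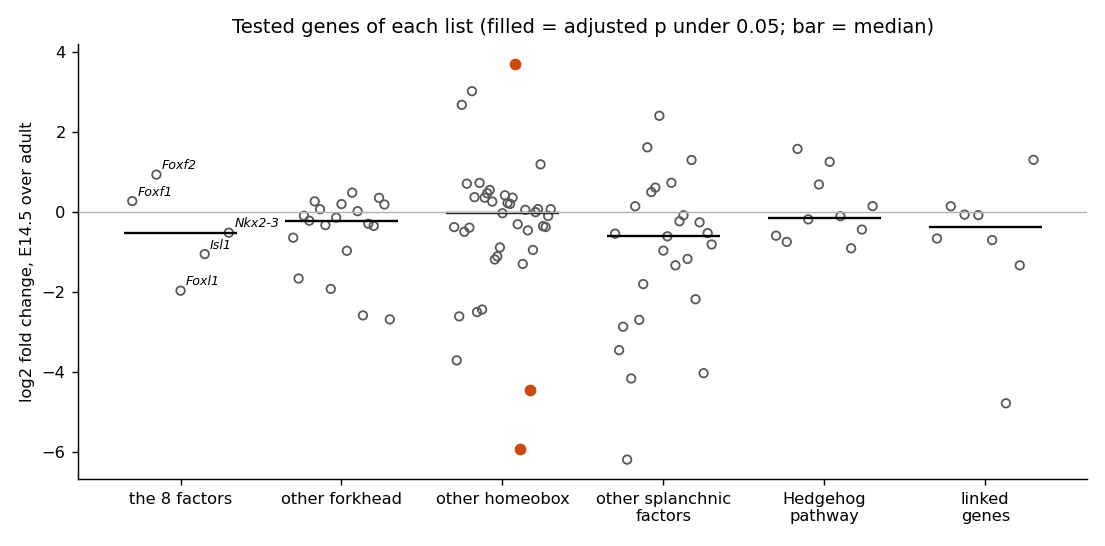
The log2 fold change of E14.5 over adult (y axis) for every tested gene of the 8 factors and the 5 gene lists on the x axis, marker lists not drawn; filled points passed edgeR at an adjusted p under 0.05 and bars are medians. The 3 filled points, 1 above 0 and 2 below, are all in the list of other homeobox genes, and no point of the 8 factors is filled.

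Other transcription factors of splanchnic mesoderm, the layer from which gut mesenchyme derives, had 25 tested genes. Of these 0 passed edgeR, 13 had an unadjusted p under 0.05, 9 passed DESeq2 and 0 passed limma-voom. The shares over all genes were 1.08% by edgeR, 17.9% unadjusted and 10.6% by DESeq2. The median log2 fold change was -0.60, with 18 of 25 negative. Of the 9 past DESeq2, 7 were lower in E14.5 and 2 were higher. Gata2 and Twist2, factors of blood and mesoderm progenitors and of mesenchyme, had the smallest DESeq2 p among the lower ones, with edgeR log2 fold changes of -4.16 (SE 0.69) and -4.02 (SE 0.74), and Hand1 was higher at 1.63 (SE 0.43). Srf, a partner of myocardin in smooth muscle, measured 111 and 129 CPM in embryonic cultures and adults. Hand2, a factor of gut mesenchyme and enteric neurons, measured 72.3 ± 3.62 and 50.9 ± 10.2 CPM (SD, n = 3 each; log2 fold change 0.51, edgeR adjusted p = 0.187), and its groups did not overlap.

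Hedgehog pathway genes, upstream of Foxf1 and Foxl1, did not pass the test between stages. Of 12 listed 10 were tested, 0 passed edgeR, 3 had an unadjusted p under 0.05, 1 passed DESeq2 and 0 passed limma-voom. Of all genes, 1.08% passed edgeR, 17.9% had an unadjusted p under 0.05 and 10.6% passed DESeq2. The median log2 fold change of the list was -0.14. Gli1, the transcription factor that is itself a readout of Hedgehog signalling, had 3, 1 and 3 counts in E14.5 and 9, 1 and 7 in adults. Ptch1, the Hedgehog receptor that the pathway itself induces, measured 12.0, 12.1 and 13.2 CPM in embryonic cultures and 17.4, 26.9 and 25.3 CPM in adult ones. Its adult values were all higher (log2 fold change -0.90, SE 0.19, edgeR adjusted p = 0.097), and it was the gene past DESeq2. With Ptch1, the genes at an unadjusted p under 0.05 were Smo and Gli3. Gli3, a transcription factor of the pathway, went the other way, at 36.8 ± 13.3 CPM in embryonic and 22.7 ± 1.80 CPM in adult cultures (SD, n = 3 each; log2 fold change 0.70, SE 0.26, edgeR adjusted p = 0.233), without overlap. Smo, the signal transducer, measured 64.8 ± 13.6 and 87.4 ± 6.56 CPM, and Gas1, a co-receptor, measured 151, 11.7 and 109 CPM in embryonic cultures and 49.0, 22.6 and 19.0 CPM in adult ones. The list summed to 405, 170 and 383 CPM for E14.5 replicates 1 to 3 in order, against 306 to 338 CPM in adult cultures. The library lowest in Foxf1 was also lowest in this sum, and whether the values are linked was not tested.

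Genes that mouse genetics ties to one of the 8 factors had 0 calls by edgeR. Of 10 listed 8 were tested, 2 had an unadjusted p under 0.05, 2 passed DESeq2 and 0 passed limma-voom. The shares over all genes were 1.08% by edgeR, 17.9% unadjusted and 10.6% by DESeq2. The median log2 fold change of the list was -0.36. The genes past DESeq2, also those at an unadjusted p under 0.05, were Wnt5a and Sfrp2. Wnt5a, a ligand that rises when Foxf2 is lost in gut mesenchyme, measured 336, 133 and 211 CPM in embryonic cultures and 94.9, 91.6 and 86.8 CPM in adult ones, without overlap (log2 fold change 1.31, SE 0.33, edgeR adjusted p = 0.121). Bmp4, a ligand under forkhead control, measured 263, 61.4 and 163 CPM in embryonic cultures and 115, 444 and 208 CPM in adult ones, which overlap. Sfrp1 and Sfrp2 are Wnt inhibitors that Barx1 induces in stomach mesenchyme. Sfrp1 had 2781, 117 and 3641 counts in E14.5 and 740, 4809 and 1763 in adults, which overlap. Sfrp2 had 4, 166 and 4 counts in E14.5 and 997, 1816 and 587 in adults (log2 fold change -4.78, SE 1.45, edgeR adjusted p = 0.164). Madcam1, the vascular addressin that depends on Nkx2-3, had 1, 1 and 0 counts in E14.5 and 0 in every adult library, and Tbx4, a limb target of Pitx1, had at most 2. Hspg2, the perlecan gene, had the highest CPM of the list, at 1503 and 1563 CPM.

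Foxf1 and Nkx2-3 are also made in other cells, among them endothelium, so marker levels were set beside them. Blood endothelial markers summed to 36.7, 16.0 and 13.3 CPM in embryonic cultures and to 28.8, 1953 and 422 CPM in adult replicates 1, 2 and 3, with Cldn5 at 0 counts in all E14.5 libraries and 3 of 10 listed genes at 0 in at least 1 library. In the same adult libraries Nkx2-3 measured 75.0, 78.3 and 75.6 CPM and Foxf1 18.9, 17.8 and 18.2 CPM. All 9 tested endothelial genes had a negative log2 fold change, with 0 past edgeR and 6 past DESeq2. Over all genes, 1.08% passed edgeR and 10.6% passed DESeq2. The pericyte genes Rgs5, Kcnj8 and Abcc9 were higher in all E14.5 than in any adult library (log2 fold change 4.87, 3.51 and 3.81). The other pericyte genes, Cspg4, Mcam and Notch3, went the other way (log2 fold change -2.43, -0.41 and -0.29). Cspg4 was lower in all E14.5 than in any adult library. Of the 6 pericyte genes tested 0 passed edgeR and 4 passed DESeq2, 3 higher and 1 lower in E14.5. The part of endothelium, pericytes and leukocytes in the stage differences of the 8 factors was not tested. Smooth muscle markers, with all 10 detected, summed to 26913 to 38776 CPM in embryonic cultures and 20066 to 31742 CPM in adult ones. Enteric glia markers summed to 0.90 to 13.0 CPM and 1.67 to 3.77 CPM.

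**Figure D5:**
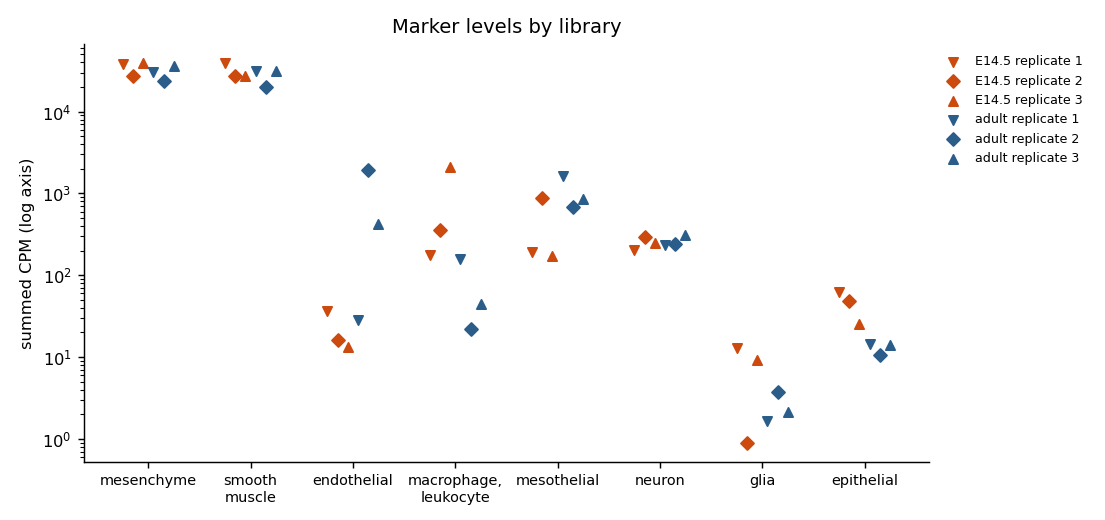
Summed CPM of marker lists (y axis, logarithmic) in each library (colour, stage; symbol, replicate). Endothelial markers are high in adult replicates 2 and 3, at 1953 and 422 CPM, and mesothelial markers in E14.5 replicate 2, at 879 CPM, sit with the adult libraries.

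By Pearson correlation of log2 CPM over the 6 libraries, among 8525 other named genes (8526 for Foxl1 and Isl1) with a mean of at least 10 CPM, Dpf2 and Paqr8 were most like Foxf1 (r = 0.996 and 0.993). Tcp11l1 and D0H4S114 were most like Foxf2 (0.995 each), Ppp3cb and Palm2 most like Nkx2-3 (0.996 and 0.993), Cpne2 and St5 most like Foxl1 (0.978 and 0.972), and Myl6 and Cx3cl1 most like Isl1 (0.988 and 0.956). These are descriptions chosen by rank: with 6 points that share 2 groups, 167 genes exceeded 0.9 for Foxf1, 238 for Foxf2 and 219 for Nkx2-3. None of the 10 named genes passed edgeR between stages.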

How the data were processed

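Each library has 1 table of raw counts by gene, deposited by the authors without normalization. The submitters' processing notes name STAR and mm10. The version, annotation and counting rule were not given in the sources used here. Per the labels, libraries were stranded and made from poly(A) RNA, so the reverse-strand column was used. Forward-strand counts were 1.33% to 1.69% of stranded gene counts. Rows that name no gene, 17.4% to 19.8% of counts, were left out.

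Groups came from the stage label, with replicates numbered in accession order. In R 4.3.3, edgeR 4.0.16 kept 13478 genes by filterByExpr, scaled them by TMM and tested E14.5 against adult by the quasi-likelihood test with Benjamini-Hochberg adjustment over all genes at 0.05. The SE is the log2 fold change divided by the square root of F, which is approximate. DESeq2 1.42.0 and limma-voom (limma 3.58.1) were alternatives, beside other scalings, filters, the unstranded column, the title prefix as a block and libraries left out. The fit was also run on simulated counts with planted changes, where only the sign of the fold changes had to be recovered. That simulation held no outlying library and no effect of sex or title prefix. It therefore does not show how reliable the calls are in these libraries. Log2 CPM used a prior count of 2. Levels per kilobase used the union of exons in GENCODE basic annotation of mm10, and coordinates are RefSeq's on GRCm38.p6. Lists were described by counts and medians. The text names, from each list, up to 3 genes per direction past the test and the 2 most abundant others, all neighbouring genes with a row in the tables, and the 2 genes most correlated with each tested factor. Further genes (Foxo1, Foxo6, Foxs1, Prrx2, Gli1, Gli3, Ptch1, Wnt5a, Sfrp1, Sfrp2, Madcam1, Tbx4, Pdgfra, Bmp7, Npy, Fgf9, Ret, Epcam, Cdh1, Rgs5, Kcnj8, Abcc9, Cspg4, Mcam, Notch3, Fn1, Col1a1, Gata2, Twist2, Hand1, Xist, Ddx3y, and Tbx20 and Dlx5 in the closing section) were named for their role or calls after their values were seen. The 8 genes and all lists were chosen with earlier results of these data known. Some genes that the naming rule selects are not reported here.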

Additional observations from a re-analysis of the deposited data

How the results depend on the processing

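The number of genes past the test, 146 with all libraries, was 1427 with DESeq2, 2 with the title prefix as a replicate block, 36 without E14.5 replicate 3 and adult replicate 2, 0 without adult replicates 2 and 3 (where the lone adult library is assumed to vary like the others), and 3 to 471 with single libraries left out (3 without E14.5 replicate 1 or adult replicate 3, 38 and 46 without adult replicates 1 and 2, 111 without E14.5 replicate 3, 471 without E14.5 replicate 2). Of those called, 77.4% were lower in E14.5 with all libraries, 51.6% with DESeq2 and 59.2% without E14.5 replicate 2. Deviations from the group mean correlated at -0.14, -0.23 and -0.09 within a title prefix. Between libraries of different prefixes the correlations ran from -0.10 to 0.20. Deviations within a group sum to 0, so these correlations are not independent and do not settle whether libraries are paired. Forward-strand shares of the E14.5 and adult libraries were close within a prefix. They were 1.49% and 1.54% for replicates 1, 1.68% and 1.69% for replicates 2, and 1.34% and 1.33% for replicates 3. Whether a prefix marks a shared preparation was not tested, so the calls lost under the block stay uncertain. They include Prrx1 and Pdgfra (edgeR adjusted p = 0.074 and 0.094). Over single libraries left out, the log2 fold change ranged from -0.0075 to 0.60 for Foxf1 (reversed without E14.5 replicate 1), from 0.70 to 1.28 for Foxf2 (past the test without E14.5 replicate 2) and from -2.65 to 0.17 for Isl1 (reversed without adult replicate 3). Isl1 was also reversed at 0.024 without adult replicates 2 and 3. Foxl1 and Nkx2-3 kept their sign and stayed short of the threshold in all alternatives that tested them. The difference in log2 Foxf1 to Foxf2 ratio was -0.65, with a range of -0.77 to -0.54 when single libraries were left out. It was -0.87 without adult replicates 2 and 3, a setting added after the data were seen. Counts past the test ranged from 0 to 10 for other homeobox genes, 0 to 9 for splanchnic factors, 0 to 3 for other forkhead genes, 0 to 2 for linked genes and 0 to 1 for Hedgehog genes. Barx1 and Nkx3-2 had at most 10 counts in a library, which limits their precision. Isl1 and Pitx1 also varied within a group beyond counting error: for Isl1, the exact Poisson 95% interval of E14.5 replicate 1 began at 0.607 CPM and that of replicate 2 ended at 0.318 CPM. The causes of these changes were not tested.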

Other observations

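Several developmental regulators at low level had, among the E14.5 libraries, their highest counts in replicate 1, a set put together after the values were seen and given with no test. Pitx1 had 61, 9 and 1 counts in E14.5 replicates 1, 2 and 3, and 1, 0 and 0 in adult libraries. Barx1 had 8, 2 and 0 counts against 0, 1 and 0. Isl1 had 29, 4 and 4 counts in E14.5 and 10, 6 and 48 in adult libraries, so its highest count of all was in adult replicate 3. Tbx20, a T-box gene of heart and mesoderm, had 56, 9 and 7 counts in E14.5 and 0, 6 and 3 in adult libraries. Dlx5, a homeobox gene of limb and skeletal tissue, had 179, 9 and 37 counts in E14.5 and 7, 11 and 8 in adult libraries. Foxl1, at 8, 8 and 3 counts for E14.5, did not share this order.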
